A study of Mus musculus with 7 samples.

Results

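The regions described here are the m6A peaks that the authors annotated to the 3′UTR in C2C12 cells, a mouse myoblast line that grows as single cells and fuses into myotubes when serum is withdrawn. Members were taken from the class column of the C2C12 peak list, and no measured value entered the choice. They numbered 1405 of the 5433 peaks in the list, in 1298 of 3969 genes. The C2C12 data came from 2 m6A IP libraries and 1 input library, combined by the authors into 1 list of positions without read counts, enrichment or p-values. No value can therefore be assigned to a library, and no test over replicates was possible. The labels give the genotype of the input as Normal and that of both IP libraries as Knockout. The methods describe no METTL3 knockout or knockdown for this experiment. Elsewhere the paper reports C2C12 cells with METTL3 knocked down by shRNA, and it does not say whether such cells gave these libraries. The labels' culture protocol covers growth in 15% FBS and 3 days in 2% horse serum and does not say at which stage RNA was taken. For comparison, 1 list of 5412 peaks was available from muscle of METTL3 cKO mice (Knockout, C57BL/6) and control mice (Normal, C57BL/6) at day 2 after CTX injection, with 1 IP and 1 input library per genotype.

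N6-methyladenosine (m6A) is written onto mRNA by a complex built around METTL3 and METTL14, removed by FTO and ALKBH5, and bound by readers such as the YTHDF proteins, which are known to act on translation and decay of the transcript. In mammalian mRNA the mark is known to be dense around the stop codon and along the 3′UTR, the stretch between the stop codon and the poly(A) tail that also holds binding sites for microRNAs and RNA-binding proteins. In muscle stem cells, METTL3, Notch receptors and their effectors are studied together because Notch signalling keeps these cells undifferentiated.

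Of the C2C12 peaks, 25.9% were annotated to the 3′UTR (95% Wilson interval 24.7 to 27.0, covering counting error only), against 52.6% to coding exons, 12.4% to introns and 6.29% to the 5′UTR. By gene the background was higher, since 32.7% of all genes with a peak had a 3′UTR peak and 57.6% had a coding exon peak. Among the 21896 protein-coding genes of the RefSeq annotation, 1270 (5.80%) had a 3′UTR peak in C2C12.

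A few members stood apart from their label. Peaks listed under noncoding transcripts (NR accessions), which have no UTR, made up 47 of the 1405 (3.35%), in 39 genes. They included the long noncoding RNAs Malat1 (1 peak of 571 bp), Neat1 (419 bp), Norad (638 bp, listed as 2900097C17Rik), Tug1 (446 and 235 bp) and H19 (203 and 200 bp). All 47 lay on the minus strand, while all 59 noncoding peaks annotated to the 5′UTR lay on the plus strand. For Bmp1, which encodes a procollagen protease and was also listed under a noncoding transcript, a peak annotated to the 3′UTR lay 67 bp from the transcription start site (TSS). With these peaks left out, 25.9% of the remaining C2C12 peaks were 3′UTR peaks and the median length was 292 bp, against 291 bp for all members. The minus strand held 55.1% of all 3′UTR peaks and 48.8% of the other peaks, a difference of 6.28 percentage points (95% Newcombe interval 3.25 to 9.29). Among coding transcripts alone the values were 53.5% and 49.5%, a difference of 4.06 points (0.973 to 7.13). All peaks of a gene share its strand, whereas both intervals treat peaks as independent, so they understate the uncertainty. The cause of the difference was not tested.

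The 3′UTR peaks were short regions. Their median length was 291 bp (95% interval of the median 285 to 301), with quartiles at 234 and 404 bp and a range of 200 to 1653 bp. Coding exon peaks had a median of 305 bp (299 to 312), and the intervals of both medians overlapped. The 5′UTR and intron peaks were shorter, with medians of 240 bp (232 to 249) and 233 bp (228 to 239). Long peaks of at least 500 bp made up 12.8% of the 3′UTR peaks (180) and 17.1% of the coding exon peaks (489). The shortest listed length, 200 bp, was found in 58 of the 3′UTR peaks (4.13%) and in 84 of the intron peaks (12.4%).

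**Figure D1:**
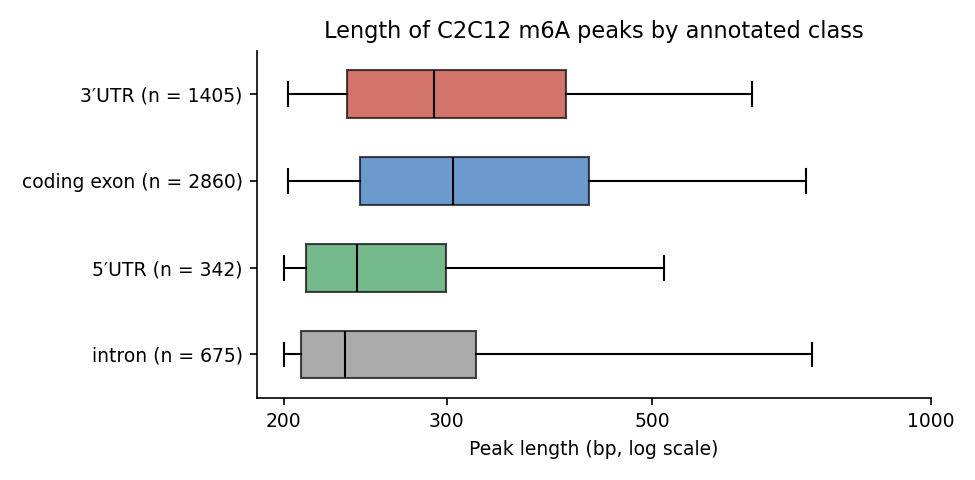
Length of the C2C12 peaks (bp, log axis) by annotated class. Boxes give the median and quartiles and whiskers the 5th and 95th percentiles over peaks; the 3′UTR box spans 234 to 404 bp around a median of 291 bp, close to that of coding exon peaks and above those of 5′UTR and intron peaks.

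The longest single 3′UTR peak was that of Cavin1 (listed as Ptrf), which encodes a coat protein of caveolae, with 1653 bp at chr11:100819063-100820715. It was followed by Rhob, a small GTPase, with 1471 bp, and by Ptger1, a receptor for prostaglandin E, with 1294 bp. Coordinates of C2C12 peaks are given as listed, and their genome build is not settled, as set out with the processing. In Rhob the peak was centred 1069 bp from the TSS in a gene of 2349 bp, so that a peak annotated to the 3′UTR covered most of the gene's length.

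The peaks lay close to the end of their gene. This, and the contrast with coding exon peaks, follows from the class by which they were chosen, so the distances are a description. The distance of each peak centre from the annotated gene end, taken from the listed TSS distance and the length of the gene, was available for 1403 peaks and had a median of 1503 bp (quartiles 693.5 and 2830). Within 1 kb of the gene end were 495 peaks (35.3%), within 2 kb 861 (61.4%) and within 5 kb 1255 (89.5%), and 4 were placed beyond it. Coding exon peaks had a median distance of 3978 bp, and 29.2% of them lay within 2 kb. Genes of both classes were of similar length, with medians of 22941 bp for 3′UTR genes and 23130 bp for coding exon genes. Expressed as a share of gene length, the median 3′UTR peak was at 93.6% of the way from the TSS, and the median coding exon peak at 74.5%. The distance is the longest annotated extent of the gene less the listed TSS distance. It is therefore overstated for a transcript that starts later or ends earlier than that extent. Values large by this measure were those of Amotl1, a scaffold protein of the Hippo pathway, at 53724 bp and Foxp1, a forkhead repressor, at 91853 bp. Whether their listed transcripts span the whole gene was not tested.

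**Figure D2:**
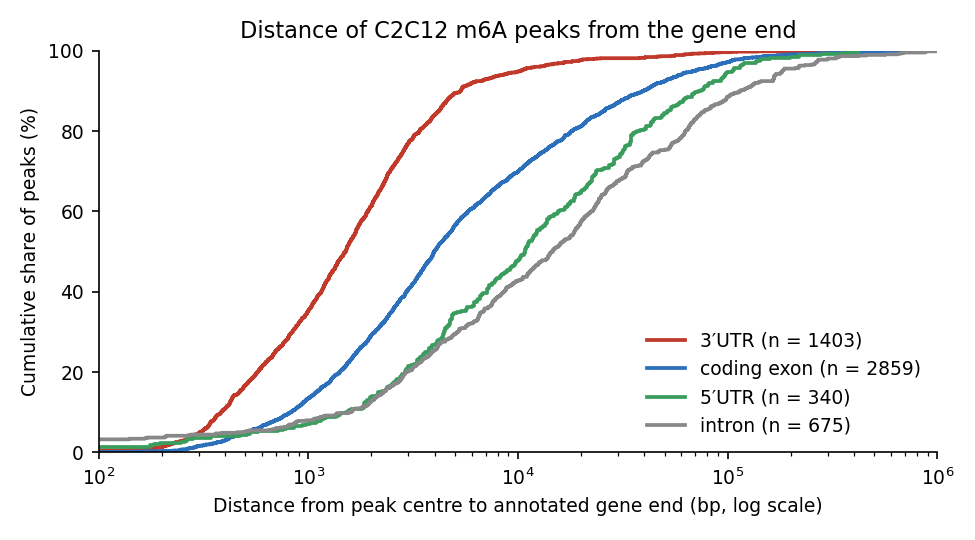
Cumulative share of peaks (%) by distance from the peak centre to the annotated gene end (bp, log axis), 1 line per class, with peaks beyond the gene end counted at the left edge. The 3′UTR line reaches 35.3% at 1 kb and 89.5% at 5 kb, where the coding exon line is at 13.4% and 56.6%.

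The 3′UTR peak farthest from its TSS was that of Gpc6, a glypican of the cell surface, at 1051571 bp, and it lay 3039 bp before the gene end. Magi1, a scaffold protein of cell junctions, had its peak at 605274 bp from the TSS and 3203 bp before the end. The peak of Large, a glycosyltransferase that modifies dystroglycan, was listed at 537109 bp from the TSS, and its gene was not matched to the annotation.

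Most genes had a lone 3′UTR peak. There were 1203 genes with 1 such peak, 84 with 2, 10 with 3 and 1 with 4. At least 2 peaks were thus found in 95 genes (7.32%, 6.02 to 8.87), against 440 of 2287 coding exon genes (19.2%), a difference of -11.9 percentage points (Newcombe interval -14.0 to -9.72). The groups have 258 genes in common, which the interval does not allow for. The 3′UTR peaks that shared a gene were close together. Over 107 neighbouring pairs the gap had a median of 407 bp (quartiles 199.5 and 712.5), and 65 gaps (60.7%) were at most 500 bp. For 573 pairs of coding exon peaks the median gap was 627 bp, and 44.2% were at most 500 bp, where introns can lie between the peaks. When peaks within 500 bp were merged, the share of genes with at least 2 regions was 3.16%.

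The gene with 4 peaks was Zcchc14, a zinc finger protein, with peaks of 219, 428, 254 and 275 bp centred 3939, 3503, 2827 and 1341 bp before the gene end and a coding exon peak at 6972 bp. Igfbp5, a secreted binding protein of insulin-like growth factors that myoblasts release during differentiation, had the greatest covered length, 2621 bp. Its 3 peaks, of 622, 1113 and 886 bp, were centred 4199, 2323 and 1204 bp before the gene end, and the longest was listed at chr1:72906405-72907517. Thus a large part of the last kilobases of this transcript was covered, and Igfbp5 had no peak of another class.

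Cell surface and signalling genes followed in covered length or number of peaks. Kremen1, a receptor for the Wnt inhibitor Dickkopf, had 3 peaks with 1181 bp in all, spread between 3418 and 970 bp before the gene end. Notch2, a Notch receptor, had 3 peaks of 303, 512 and 326 bp, centred 2628, 1878 and 956 bp before the end and preceded by 2 coding exon peaks at 3952 and 3493 bp. Tab1, an adaptor of the kinase TAK1, had 3 peaks with 1030 bp, the last centred 203 bp before the end. Pip4k2b, a phosphoinositide kinase, had 3 peaks with 1018 bp. Mvb12b, a subunit of an endosomal sorting complex, had 3 peaks with 955 bp. Aak1, a kinase of clathrin-mediated endocytosis, had 3 peaks with 880 bp that lay between 7404 and 5860 bp before the end. The order along the transcript thus differed among these genes, from peaks at the very end in Tab1 to peaks far from it in Aak1.

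Transcriptional regulators were also among them. Ski, a repressor of Smad transcription factors, had 3 peaks with 822 bp and a coding exon peak 798 bp from its TSS. Sox4, an HMG-box transcription factor, had peaks of 826 and 330 bp beside 1 coding exon and 1 5′UTR peak. Tmem119, a membrane protein, had peaks of 1205 and 317 bp, and Wbp1l had peaks of 1145 and 220 bp. Csf1, the macrophage colony-stimulating factor, had a lone 3′UTR peak of 1162 bp.

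**Figure D3:**
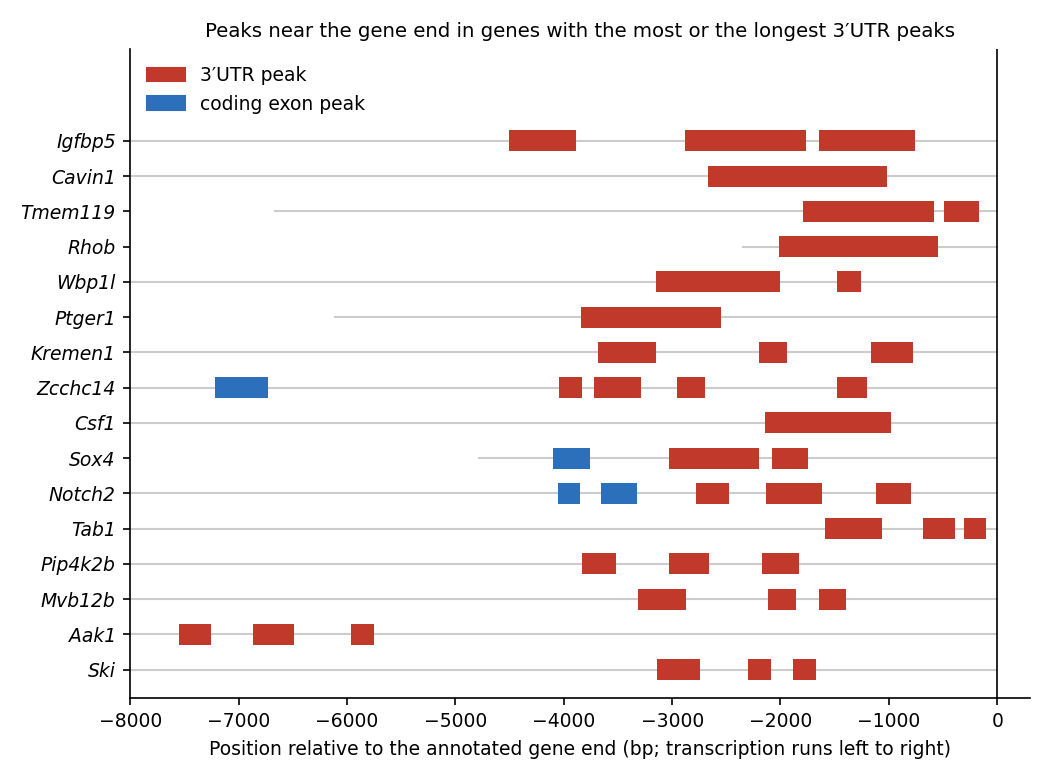
Position of the listed peaks relative to the annotated gene end (bp, gene end at 0) in genes with the most 3′UTR peaks or the longest covered 3′UTR length, ordered by covered length with Igfbp5 (2621 bp) at the top. Red bars are 3′UTR peaks and blue bars coding exon peaks, drawn to scale on a grey line for the gene; coding exon peaks farther upstream than the axis reaches are not drawn.

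Most genes with a 3′UTR peak had no peak of another class, and this held for coding exon genes too. Of the 1298 genes, 962 (74.1%, 71.7 to 76.4) had 3′UTR peaks as their only class. A coding exon peak was also found in 258 (19.9%, 17.8 to 22.1), below the 57.6% of all listed genes that have a coding exon peak. As every listed gene has at least 1 peak, a gene that is not a 3′UTR gene must have a peak of another class, so the 2 shares are given as a description. An intron peak was also found in 48 genes and a 5′UTR peak in 47. In the 258 genes with both, the gap from the 3′UTR peak to the nearest coding exon peak had a median of 1190 bp, and 84 gaps (32.6%) were at most 500 bp. From the other side, 11.3% of the coding exon genes had a 3′UTR peak. Coding exon peaks were the only class in 1849 of the 2287 coding exon genes.

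The share of peaks in the 3′UTR class varied among chromosomes. It was highest on chromosome 6 with 31.1% (25.4 to 37.4) and lowest on chromosome X, with 14 of 89 peaks (15.7%, 9.61 to 24.7). Chromosome 18, with 25 of 145 peaks (17.2%, upper bound 24.2), and chromosome 3, with 47 of 269 (17.5%, 13.4 to 22.5), also lay below the 25.9% of the whole list. Chromosome 11, with 142 of 468 peaks (30.3%, 26.4 to 34.7), and chromosome 2, with 142 of 475 (29.9%, 26.0 to 34.2), lay above it. The interval of chromosome 6 included the share of the whole list. The chromosomes named are the extremes of all those compared. Peaks of the same gene are not independent, and the intervals allow neither for this nor for the number of chromosomes.

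The 3′UTR peaks were next sorted by what their genes do. Of 427 genes in 17 lists, 199 had a C2C12 peak, and 73 of these (36.7%) had a 3′UTR peak, against the 32.7% of all listed genes. The lists differed in where their peaks fell, and the members of small lists allow only counts. The lists were chosen with earlier results of these data known, so their shares are descriptions.

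In the Notch pathway, a ligand on a neighbouring cell releases the intracellular part of the receptor to activate RBPJ target genes. Of 9 receptor, ligand and effector genes with a peak, 4 (44.4%) had a 3′UTR peak, against 32.7% of all listed genes. Among the receptors, Notch2 had 3 peaks, as above, and Notch1 had 1 of 255 bp, centred 800 bp before the gene end, with a coding exon peak 2743 bp before it. Rbpj, the DNA-binding effector, had a peak of 291 bp, 3806 bp before the end. Maml3, a coactivator of the RBPJ complex, had a peak of 247 bp, 415682 bp from the TSS and 2318 bp before the end. The receptor Notch3, the ligands Jag1 and Jag2 and the coactivators Maml1 and Maml2 had coding exon but no 3′UTR peaks.

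Among genes that process or modulate Notch signalling, 9 of 13 with a peak (69.2%) had a 3′UTR peak, against 32.7% of all listed genes. Both proteolytic steps of receptor activation were represented. Adam17, a sheddase that can cleave the receptor outside the membrane, had a peak of 262 bp. The γ-secretase subunit Ncstn had a peak of 284 bp. Pofut1 and Rfng, which add and extend O-linked fucose on the receptor, had peaks of 220 and 304 bp. Of the transcriptional cofactors, Spen had a peak of 464 bp beside 5 coding exon peaks, and Snw1 one of 354 bp. Heyl, a target gene, had a peak of 219 bp, whereas Hes1, another target, had a coding exon peak and none in the 3′UTR. Heyl thus had the shortest 3′UTR peak of this list.

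The m6A machinery showed none of this class. Of the writers and erasers 8 of 10 had a C2C12 peak, and of the readers 6 of 12, but 0 of these 14 had a 3′UTR peak, where 32.7% of all listed genes did. Coding exon peaks were found in 7 writer and eraser genes, the writer subunits Wtap, Virma, Rbm15, Rbm15b and Zc3h13 and the erasers Fto and Alkbh5. They were also found in the readers Ythdf1, Ythdf2, Ythdf3 and Prrc2a. Among factors that bind 3′UTRs or shorten poly(A) tails, 5 of 11 (45.5%) had a 3′UTR peak. These were the KH-domain protein Khsrp, the double-stranded RNA-binding protein Stau1, the deadenylation subunit Pan3, the microRNA effector Tnrc6c and Zfp36l2, which binds AU-rich elements. Its relative Zfp36 and the microRNA effectors Tnrc6a and Tnrc6b had coding exon peaks and none in the 3′UTR.

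Of the myogenic transcription factors, 7 of 12 with a peak (58.3%) had a 3′UTR peak, against 32.7% of all listed genes. Pax7, which marks muscle stem cells, had the longest of them, a peak of 752 bp centred 2457 bp before the gene end. The inhibitors of basic helix-loop-helix factors Id1, Id2 and Id3 had peaks of 279, 372 and 341 bp. All were within 1 kb of the gene end, in short genes of 1160, 2294 and 1571 bp. Tcf3, an E protein that pairs with MyoD, had a peak of 474 bp. Srf, a regulator of actin and immediate-early genes, had one of 310 bp, and Eya1, a cofactor of homeodomain proteins, one of 241 bp. Six4, Mrtfa and Mrtfb had coding exon peaks and no 3′UTR peak. Among the myoblast markers, 5 of 8 (Myod1, Pax7, Des, Cdh15 and Chrna1) were in the list. Des, the intermediate filament of muscle, had 3′UTR peaks of 270 and 303 bp, and Cdh15, a cadherin of myoblasts, had a 3′UTR peak of 532 bp. None of the 8 myotube markers, including Myog and Myh3, had a C2C12 peak, and neither did any macrophage, endothelial, adipocyte or epithelial marker. A peak requires both the transcript and the mark, so absence from the list does not give the level of a transcript.

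Immediate-early genes, which are transcribed within minutes of a stimulus, had 3′UTR peaks in 9 of 14 cases (64.3%, beside 32.7% of all listed genes). They were Jun, Fosl2, Maff and Atf3 of the AP-1 and ATF group, Egr2, Srf, Ier2, Ier3 and Ier5. Their lengths ran from 224 bp in Ier3 to 1097 bp in Ier5, with 1096 bp in Ier2, a gene of 1522 bp. Egr1, Egr3, Junb, Jund and Myc had coding exon peaks without a 3′UTR peak. Of the Krüppel-like factors, Klf2, Klf4 and Klf13 were among the 3′UTR genes, 3 of 8 (37.5%), near the share of all listed genes.

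Against 32.7% of all listed genes, 9 of 17 (52.9%) had a 3′UTR peak in the TGF-β pathway, in which receptor kinases phosphorylate Smad proteins. These were mainly receptors, namely Acvr1, Acvr1b, Acvr2a, Bmpr1a and Tgfbr2, with the signal transducers Smad1 and Smad3, the repressor Ski and the ligand Tgfb2. Smad3 had 2 peaks of 263 and 230 bp. The ligands Bmp4, Inhba and Tgfb3 and the inhibitors Smad7 and Skil had coding exon peaks and none in the 3′UTR. In the Wnt pathway 2 of 14 genes (14.3%) had a 3′UTR peak, the receptors Fzd1 and Fzd7. Coding exon peaks were found in 12 Wnt genes, among them the coreceptors Lrp5 and Lrp6, the scaffold Axin1, Apc and Ctnnb1, which encodes β-catenin.

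Against 32.7% of all listed genes, the Hippo pathway had 6 of 12 genes (50%) in the 3′UTR class. They were the coactivator Yap1, its DNA-binding partners Tead3 and Tead4, the cofactor Vgll3 and the scaffolds Amotl1 and Amotl2. Amotl2 had 2 peaks of 495 and 415 bp. The upstream kinases Lats1 and Lats2 had coding exon peaks and none in the 3′UTR. In the insulin and mTOR pathway 8 of 14 genes (57.1%) had a 3′UTR peak. These were the receptors Igf1r and Insr, the adaptor Irs1, the regulatory kinase subunit Pik3r1 (2 peaks, 674 bp in all), the translation regulators Eif4ebp1 and Rps6kb1, the mTOR inhibitor Ddit4 and the transcription factor Foxo3.

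Other lists held few members. Of the cell cycle genes 2 of 12 (16.7%, E2f3 and Rbl2) had a 3′UTR peak. Of the clock genes 2 of 9 (22.2%, the casein kinases Csnk1d and Csnk1e) had one. Of 32 extracellular matrix and integrin genes, 26 were in the list. Of these, 8 (30.8%) had a 3′UTR peak, near the 32.7% of all listed genes. These were the integrins Itga3, Itga5 and Itga6, the adhesion proteins Ptk2 and Tln1, and Col5a1, Hspg2 and Thbs1, while Col1a1, Col1a2 and Fn1 had coding exon peaks and none in the 3′UTR. Of 30 sarcomere genes, 3 were in the list and 0 in the 3′UTR class. Of 33 ribosomal protein genes, 12 were in the list and 0 in the 3′UTR class.

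**Figure D4:**
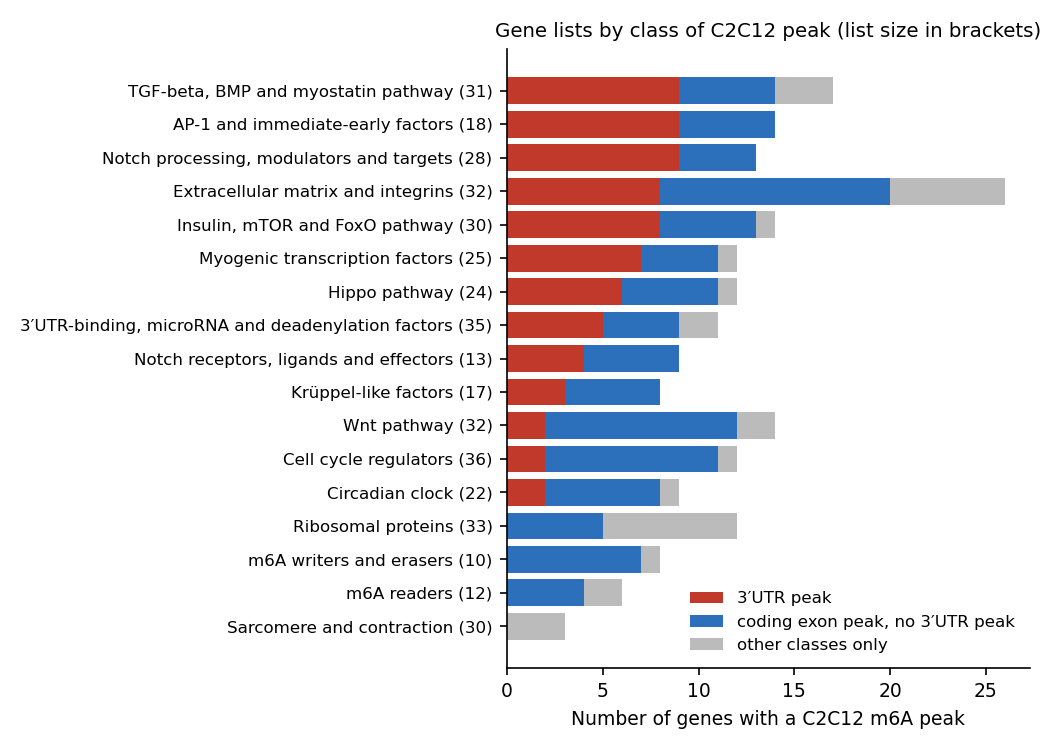
Number of genes in each list with a C2C12 m6A peak, split into genes with a 3′UTR peak (red), with a coding exon peak but no 3′UTR peak (blue) and with other classes only (grey); the list size is in brackets. TGF-β, immediate-early and Notch modulator lists each have 9 genes in red, and ribosomal protein, sarcomere and both m6A lists have 0.

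The class of the peak was then compared with the muscle list. That list was made for a differential comparison of the genotypes, so a gene outside it may still carry m6A in muscle. The comparison was made by gene, because the positions of both lists are not on the same footing. Genes with a C2C12 3′UTR peak were found in the muscle list in 570 of 1298 cases (43.9%, 41.2 to 46.6), against 40.7% of all C2C12 genes and 45.7% of coding exon genes. The difference from coding exon genes was -1.78 percentage points with an interval from -5.15 to 1.61. These groups have 258 genes in common, which the interval does not allow for. Between genes with 3′UTR peaks only (40.6%) and genes with coding exon peaks only (44.2%) the difference was -3.60 points (-7.41 to 0.263). Both intervals include 0, so these data do not separate the shares.

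Within the shared genes the class often recurred. A muscle 3′UTR peak was found for 399 of the 570 genes (70.0%, 66.1 to 73.6), where 51.8% of all shared C2C12 genes had one. For coding exon genes the value was 446 of 1045 (42.7%), a difference of 27.3 percentage points (22.4 to 32.0). Both groups hold the same 141 genes with both classes, which this interval does not allow for. A muscle CDS peak was found for 26.0% of the 3′UTR genes and 56.8% of the coding exon genes, beside 44.7% of all shared genes. Genes with 3′UTR peaks as their only C2C12 class had a muscle 3′UTR peak in 285 of 391 cases (72.9%), and genes with coding exon peaks only in 329 of 818 (40.2%), a difference of 32.7 points (26.9 to 38.0). Genes with both classes lay between them at 62.4% (54.2 to 70.0). Genes with only intron peaks in C2C12 had a muscle 3′UTR peak in 37 of 60 cases (61.7%, 49.0 to 72.9). That interval overlapped the interval of genes with 3′UTR peaks only (68.3 to 77.1). For genes with only 5′UTR peaks the count was 25 of 50 (50%, 36.6 to 63.4). Muscle genes without a C2C12 peak had a muscle 3′UTR peak in 54.1% of cases. The intervals cover counting error over genes and not the spread between libraries. Without the noncoding transcripts the share among 3′UTR genes was 70.9%. The 399 genes were 30.7% of the C2C12 3′UTR genes and 18.9% of the 2114 muscle 3′UTR genes.

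**Figure D5:**
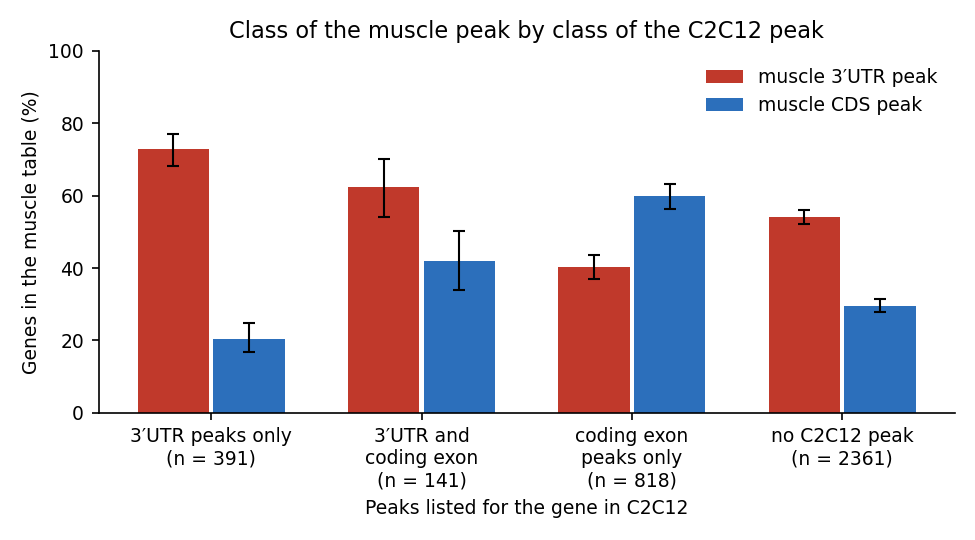
Share of genes in the muscle list (%) with a muscle 3′UTR peak (red) or a muscle CDS peak (blue), by the class of the gene's C2C12 peaks; error bars are 95% Wilson intervals and n is the number of genes. The red bar is higher for genes with C2C12 3′UTR peaks only (72.9%) than for genes with coding exon peaks only (40.2%), and the blue bar is lower.

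Muscle 3′UTR peaks were stronger and longer where C2C12 had a 3′UTR peak. For each muscle peak the authors deposited the fold enrichment of IP over input. In genes with a C2C12 3′UTR peak, 497 muscle 3′UTR peaks had a median fold enrichment of 26.8 (quartiles 6.48 and 91.5). In genes with a coding exon but no 3′UTR peak in C2C12, 433 muscle 3′UTR peaks had a median of 9.43 (4.72 and 25.2), and in genes without a C2C12 peak 1569 had a median of 8.61. The quartile ranges of these groups overlapped. A GGAC site, the core of the sequence that METTL3 methylates, was listed in 77.1% (73.2 to 80.5), 60.7% (56.1 to 65.2) and 58.2% (55.7 to 60.6) of these muscle peaks. Median lengths of peaks in a single block moved with this, at 480, 284.5 and 270 bp. Per kilobase the sites numbered 4.67, 3.95 and 3.66. The part of length, and of transcript level, in the difference of fold enrichment was not tested.

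Of the genes with 3′UTR peaks in both lists, the highest muscle fold enrichment was that of Cwc25, a splicing factor, with 1490 and 4 GGAC sites at chr11:97746737-97747801 (muscle positions on GRCm38). It was followed by Tmem229b, a membrane protein, with 1450 and 11 GGAC sites. Foxp1 had 865 with 2 sites, Efnb2, a transmembrane ephrin ligand, had 810 with 12 sites, and Hs6st1, a heparan sulfate sulfotransferase, had 808 with 9 sites. The C2C12 3′UTR peaks of these 5 genes measured between 260 and 611 bp, and none was among the 10 genes with the longest covered length.

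Of the genes with most C2C12 3′UTR peaks, Notch2 had 1 muscle 3′UTR peak that spanned 4074 bp, held 19 GGAC sites and was enriched 329-fold. Aak1 had 3 muscle 3′UTR peaks with fold enrichments of 616, 3.3 and 7.8. Tab1 had 1 muscle 3′UTR peak at 345. Ski had muscle 3′UTR peaks at 147 and 4.41, and Igfbp5 at 67.4 and 10.4. Zcchc14, Kremen1, Pip4k2b and Mvb12b had no peak in the muscle list. Among the Notch and myogenic genes, muscle 3′UTR peaks were also found for Rbpj (fold enrichment 90.9), Pax7 (39), Id1 (12.9) and Id3 (9.42). Notch1 had CDS peaks in muscle at 23.4 and 2.7 and no 3′UTR peak.

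Where C2C12 and muscle both had a 3′UTR peak, the positions were set side by side as distances from the gene's 5′ end. By this measure the peaks overlapped in 236 of 399 genes (59.1%, 54.3 to 63.9) and were within 500 bp of each other in 275 (68.9%). Both peaks came from the 3′UTR class of the same gene, and the closest pair was taken. The overlap that this choice alone gives was not tested. In 31 genes (7.77%) the peaks were more than 5 kb apart by this measure. The C2C12 distance starts at the listed TSS and the muscle distance at the annotated 5′ end of the gene. Where these starts differ, the difference enters the gap, and this was not tested. Peaks overlapped in Notch2, Rbpj, Pax7, Igfbp5, Cwc25 and Tmem229b. The gap by this measure was 1331.5 bp in Sox4 and 87269.5 bp in Foxp1. In Foxp1 the listed TSS distance was 505552 bp in a gene of 597405 bp, so the gap does not show that its peaks lie apart.

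For some genes with a 3′UTR peak in C2C12 the muscle list held another class. Rhob and Ptger1, with C2C12 3′UTR peaks of 1471 and 1294 bp, had in muscle only peaks annotated to the CDS, with fold enrichments of 68.2 and 234. Jun and Ier5 likewise had in muscle a CDS peak each, with fold enrichments of 184 and 105. Each list carries its own annotation, and whether these peaks cover the same bases was not tested.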

How the data were processed

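The authors deposited 1 peak list for C2C12 and 1 for muscle, each made from pooled libraries, so peaks are not given per library. The submitters' processing notes name TopHat, MACS2 and mm10, with no roles, and versions are not given in the sources used here. Per the file headers, the C2C12 list holds positions, class, transcript and TSS distance, and the muscle list holds fold enrichment, a ratio of IP over input deposited by the authors. The authors' columns of a differential test between genotypes, and score columns, were not used. Columns of single samples left out numbered 0. The files hold no counts, so depth is unknown and no limit of detection is given.

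C2C12 genes were matched to RefSeq (GRCm38.p6) by transcript or symbol, 3965 of 3969, and muscle genes by symbol, 3811 of 3983, of which 9 symbols had been turned into dates. Only 8.48% of the 3′UTR peaks lay inside the GRCm38 span of their gene, against 95.6% of muscle peaks. The build of the C2C12 list is therefore unsettled. Beyond this check, no C2C12 coordinate was compared with the annotation or with muscle. Distances rest on the listed TSS distance, which is to the peak centre: 1021 of 1023 transcripts with several peaks gave 1 TSS. Intervals are 95% Wilson (shares), Newcombe (differences) and exact binomial (medians), tested on simulated data, and cover counting error only. Python 3.11.15, numpy 2.4.6, pandas 2.3.3, scipy 1.17.1 and matplotlib 3.10.9 were used.

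The peak class and the gene lists were chosen with earlier results of these data known. Named genes are the 10 with the most peaks, the 10 with the greatest covered length, the 3 longest peaks, list genes, the 5 with the highest muscle fold enrichment and the 3 farthest from a TSS; some genes that this rule selects are not reported here. The noncoding peaks, the shortest and longest peaks of a list, the symbol families, the comparison of positions between lists and the genes named for a change of class were chosen after their values were seen. Alternatives concerned the unit counted, merging of peaks, length filters, the point measured and the choice of muscle peak. No sequence is shown, as no genome of the build was used here.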

Additional observations from a re-analysis of the deposited data

How the results depend on the processing

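Of the alternatives run, 18 were counted as unchanged and 9 moved outside the interval of the value reported. Unchanged means within that interval, except for the count of list genes, which has no interval and stayed at 73. The 3′UTR share of C2C12 peaks, 25.9%, was 32.7% when genes were counted and 30.5% without intron, upstream and downstream peaks. The share of genes with at least 2 3′UTR peaks was 3.16% after peaks within 500 bp were merged. The share that also had a coding exon peak was 16.8% among peaks at or above the first quartile of length. The median distance from the gene end was 1322.5 bp from the nearer end of the peak. The share of 3′UTR genes in the muscle list was 40.6% for genes with 3′UTR peaks only, 39.3% for genes with 1 C2C12 peak and 32.5% with the more enriched muscle peaks, those not under the median. The share of shared genes with a muscle 3′UTR peak was 64.0% when the peak with the highest fold enrichment alone was used. Restriction to coding transcripts, chosen after seeing the data, moved none of the 8 results by these rules. Leaving out a library was not possible, since the list gives no values per library. No paired analysis was possible because the lists hold 1 pooled set of values and no columns for single samples.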

Other observations

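Families of genes that share the root of a symbol were counted after the peaks had been seen, beside the 32.7% of all listed C2C12 genes with a 3′UTR peak. Of 16 Rab GTPase genes with a C2C12 peak, which direct membrane traffic, 12 (75%) had a 3′UTR peak, among them Rab5a, Rab8a, Rab8b and Rab35. Of 67 solute carrier genes 29 (43.3%) had one, including the glucose transporter Slc2a1, and of 38 Tmem genes 21 (55.3%). Of 4 ephrin genes, Efna1, Efna4 and Efnb2 had 3′UTR peaks. Forkhead transcription factors had them in 9 of 15 genes.

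Of 109 Zfp zinc finger genes, 29 (26.6%) had a 3′UTR peak and 82 a coding exon peak. Of 22 Zbtb genes, 2 had a 3′UTR peak (Zbtb44 and Zbtb45) and 21 a coding exon peak. Ubiquitin ligase and protease families had 7 of 28 (Rnf), 1 of 11 (Trim, the gene Trim47), 6 of 21 (F-box, including the atrophy gene Fbxo32) and 5 of 21 (Usp) genes in the 3′UTR class. Of 8 kinesin genes 1 (Kif26b), and of 8 Hox genes 0, had a 3′UTR peak. The families were chosen with these values in view, so the counts are descriptions.

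Strand and class went together for noncoding transcripts outside the 3′UTR class too. All 17 noncoding peaks annotated as upstream lay on the minus strand, and 7 of 8 annotated as downstream lay on the plus strand, while intron peaks of noncoding transcripts were divided into 32 on the plus and 25 on the minus strand. Among coding transcripts, the 5′UTR class had 143 peaks on the plus and 140 on the minus strand.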
